A study of Mus musculus with 3 samples.

Results

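The transcripts of 33 genes of glycolysis, lactate and pyruvate metabolism were examined in Colon26 cells, a mouse line of colon adenocarcinoma, and in its sublines LuM1, which is highly metastatic, and NM11, which is poorly metastatic. The genes were chosen by symbol from the pathway, with no rule on their signals but with earlier results of these data known. They are 33 of the 22911 genes that the array named. All 3 lines are of BALB/c origin and labelled female, and no genetic change or drug was applied to any of them. Each line was grown in RPMI1640 with 10% FBS and antibiotics for 3 days, and 0.1 µg of its total RNA was hybridised to 1 single-colour array. LuM1 was set against Colon26, LuM1 against NM11 and NM11 against Colon26. These comparisons share arrays and are therefore not independent of each other. With 1 culture and 1 array per line, a difference between lines and a difference between cultures cannot be told apart, and no difference had a replicate check or a test. The RNA came from whole cultures, so a smaller share of expressing cells and less RNA per cell cannot be told apart either.

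Glycolysis splits glucose into pyruvate in the cytosol. Its preparatory enzymes spend ATP to make triose phosphates, and its payoff enzymes then regain ATP and NADH. Pyruvate is either reduced to lactate, which monocarboxylate transporters carry across the membrane, or enters mitochondria, where pyruvate dehydrogenase feeds it into the citric acid cycle unless its kinases switch the enzyme off. Tumour cells often release much lactate even where oxygen is present, and many of these genes are known targets of hypoxia-inducible factor (HIF).

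Signals below are background-subtracted spot intensities in arbitrary units, scaled so that the 75th percentile of every array lay at 585.1. They are written ± the error that the scanner software gave for that spot, which is close to 10% of the signal and holds no biological spread. A ratio of 2 such signals had a scanner error near 0.20 on the log2 scale. A gene with several probes was read through its brightest one. Levels were compared only within a probe and not between genes, apart from a rank of probe brightness and summed signals of cell type markers, both given below. Such sums weigh most the genes with the brightest probes. Before scaling, the 75th percentiles were 581.1 for Colon26, 625.1 for LuM1 and 551.5 for NM11, between 49.9% and 53.8% of probes were well above background, and no spot was saturated. Of 11 colon epithelium markers, 4 were well above background in Colon26, 5 in LuM1 and 4 in NM11, with summed signals of 1321, 493 and 430, in which *Krt20* read 651, 54.5 and 157 and *Krt8* read 28.9, 108 and 37.1. *Cdh1*, *Krt18*, *Krt19*, *Vil1*, *Cdx1* and *Muc2* were well above background on no array. All 5 mesenchymal markers were well above background on every array, with summed signals of 179239, 94035 and 203208, which differed mostly through *Col1a2* at 59896, 49.6 and 85275. Of 6 leukocyte markers 3, 4 and 3 were, with sums of 5827, 12630 and 5103 that differed mostly through *Cd68* at 172, 5251 and 299, and *Ptprc* and *Adgre1* were well above background on none. Of 4 endothelial markers, *Pecam1* was well above background on every array, at 51.3, 53.0 and 78.3, and the other 3 on none. The part of these cell type markers in the values below was not tested.

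Most of the pathway was detected in every line. All 3 arrays detected 29 of the 33 genes well above background, against 53.5% of all named genes. *Slc2a3*, *Ldhb* and *Pdk4* were well above background on no array, and *Pfkfb3* was so in LuM1 and NM11 but not in Colon26. Differences between the lines were mostly small. The ratio of the highest line to the lowest was below 2-fold for 23 of the 29 genes (79.3%), against 72.9% of all genes.

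**Figure D1:**
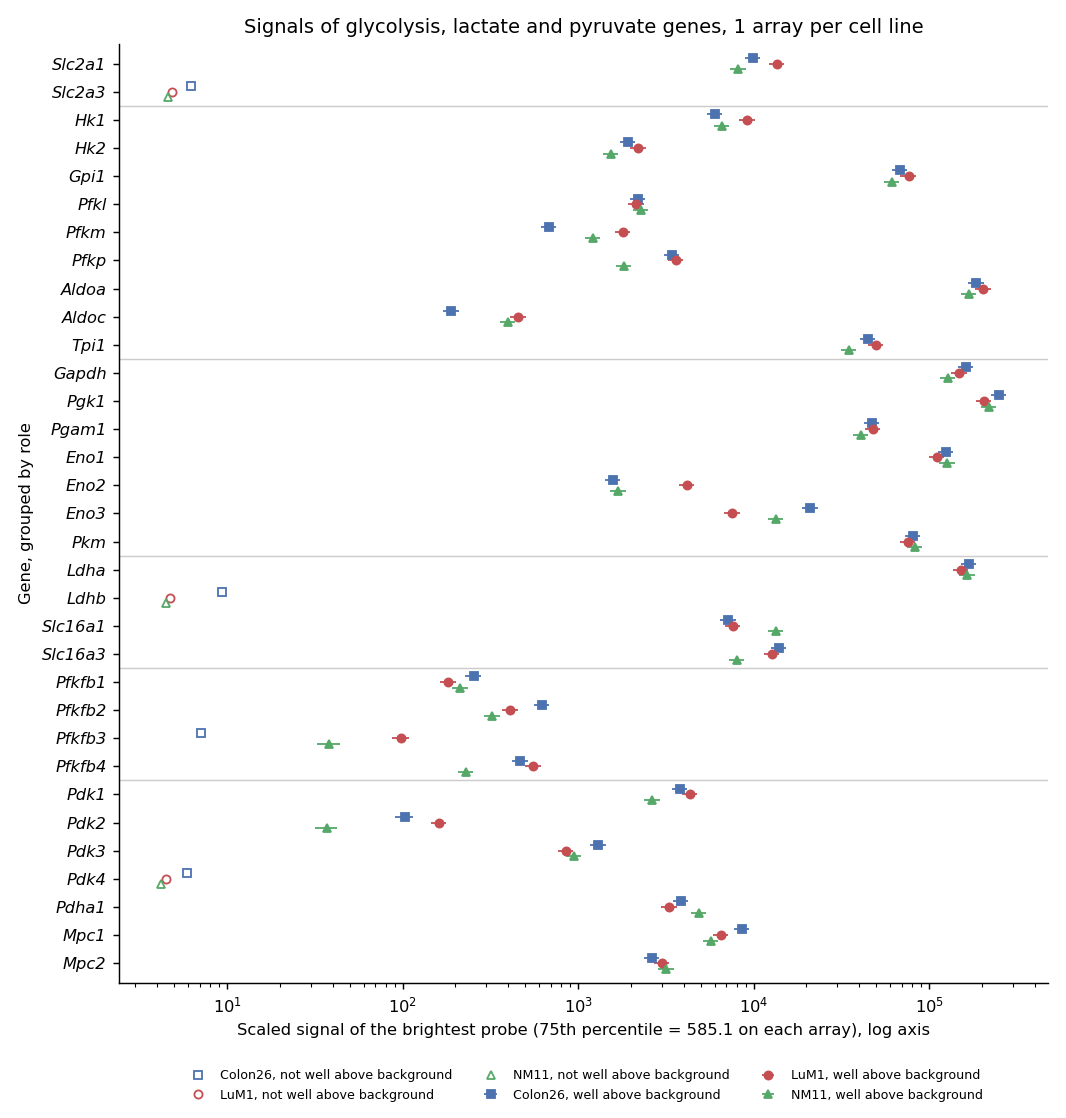
Scaled signals (log axis, arbitrary units) of the 33 genes in Colon26, LuM1 and NM11, 1 point per array, with bars for the scanner error and open symbols where a probe was not well above background. *Slc2a3*, *Ldhb* and *Pdk4* lie at the background on every array, and the points of 23 of the 29 genes detected on every array span less than 2-fold.

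Hypoxia response elements, the DNA sites that HIF binds, hold the core letters ACGTG, so the promoters of the members were read for them. Promoter windows of 300 bases, 250 before and 50 after each annotated start, were taken from RefSeq on build GRCm38.p6. They were found for 32 of the 33 genes, with none for *Slc2a3*, and numbered 52. ACGTG on either strand, which also lies within the E-box CACGTG, was present in 21 of the 52 windows (40.4%). It was present in 19.6% of all 32851 promoters and in 20.9% of the 21263 promoters of protein-coding genes. The windows of the members were richer in G and C, with a median of 60.8% against 52.7% for all promoters and 56.3% for those of protein-coding genes. The promoters of 5 genes are shown because these genes carry the account, *Pfkfb3* and *Pdk2* with differences between lines and an ACGTG, *Ldha* with several ACGTG and hardly any difference, and *Eno2* and *Eno3* as isozymes whose ratios ran in opposite directions. Each is the 250 bases before the start, 5′ to 3′ on the strand of the gene, from the window with the most matches where a gene had several. Capitals mark ACGTG on either strand, or the whole of CACGTG.
Pfkfb3, chr2:11502091-11502340, minus strand: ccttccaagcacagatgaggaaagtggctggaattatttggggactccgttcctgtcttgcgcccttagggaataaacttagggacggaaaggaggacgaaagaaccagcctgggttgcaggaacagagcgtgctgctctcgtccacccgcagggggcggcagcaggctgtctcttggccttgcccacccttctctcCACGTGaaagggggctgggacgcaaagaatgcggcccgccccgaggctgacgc
Pdk2, chr11:95041372-95041621, minus strand: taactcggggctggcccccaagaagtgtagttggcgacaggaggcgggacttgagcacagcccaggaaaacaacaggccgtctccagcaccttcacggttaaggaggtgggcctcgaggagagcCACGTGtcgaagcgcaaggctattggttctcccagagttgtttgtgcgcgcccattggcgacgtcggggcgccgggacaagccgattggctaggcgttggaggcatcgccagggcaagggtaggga
Ldha, chr7:46845554-46845803, plus strand: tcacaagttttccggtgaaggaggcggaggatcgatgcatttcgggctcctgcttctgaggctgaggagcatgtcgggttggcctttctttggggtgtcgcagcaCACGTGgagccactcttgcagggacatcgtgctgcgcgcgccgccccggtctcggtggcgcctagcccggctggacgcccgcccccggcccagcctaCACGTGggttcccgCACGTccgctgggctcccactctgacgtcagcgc
Eno2, chr6:124769674-124769923, minus strand: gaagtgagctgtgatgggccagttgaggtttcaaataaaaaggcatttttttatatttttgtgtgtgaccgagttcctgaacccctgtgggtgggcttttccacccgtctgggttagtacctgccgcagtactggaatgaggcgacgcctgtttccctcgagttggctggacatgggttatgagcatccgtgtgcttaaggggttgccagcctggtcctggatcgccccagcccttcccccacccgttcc
Eno3, chr11:70656926-70657175, plus strand: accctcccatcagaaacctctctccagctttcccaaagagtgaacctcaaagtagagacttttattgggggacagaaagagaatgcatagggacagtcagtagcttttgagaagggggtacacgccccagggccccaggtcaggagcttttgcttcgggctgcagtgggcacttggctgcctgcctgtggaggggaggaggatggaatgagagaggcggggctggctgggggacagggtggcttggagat

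Counted back from the start, the capitals began at base -53 in *Pfkfb3*, at -126 in *Pdk2*, and at -145, -48 and -34 in *Ldha*. The *Eno2* and *Eno3* stretches held no ACGTG. Of the 7 genes at least 2-fold different in any comparison, 4 had the motif in a window. Of the other 25 with a promoter, 13 had it. Among all genes with a promoter 21.8% did, and among protein-coding genes 23.2%. These counts describe letters only, and no binding was measured.

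Of 30 genes with a ratio or a bound for LuM1 over Colon26, *Pfkm*, *Aldoc*, *Eno2* and *Pfkfb3* were at least 2-fold higher and *Eno3* at least 2-fold lower. Over all 14353 genes tested, 12.9% were at least 2-fold higher and 11.7% at least 2-fold lower, so that 4 and 1 of 30 stood near and below these shares. The median log2 ratio of the 29 genes measured on both arrays was 0.07, beside -0.13 for all genes, and 25 of the 29 were within 2-fold. A total of 7 of the 29 were higher and 7 lower by more than the scanner error, where 30.3% and 44.6% of all measured genes were.

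Against NM11, more members were higher in LuM1 than lower. *Eno2*, *Pfkfb3*, *Pfkfb4* and *Pdk2* were at least 2-fold higher in LuM1 and no member was 2-fold lower, where 11.1% of all genes were higher and 8.5% lower. The median log2 ratio of the 30 members was 0.25, beside -0.11 for all genes. Beyond the scanner error, 17 of 30 members were higher in LuM1 and 4 lower, beside 30.7% and 42% of all measured genes, while the count at 2-fold, 4 of 30, was near the share of all genes. NM11 over Colon26 ran the other way, with a median of -0.20 for the members and -0.02 for all genes, and with 5 of 29 members higher and 14 lower beyond the scanner error, beside 30.6% and 34.9% of all measured genes. There *Aldoc* was at least 2-fold higher, and *Pfkfb4* and *Pdk2* at least 2-fold lower, where all genes gave 8.17% and 7.74%.

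The lines were also ordered by signal within each gene. Among the 29 members detected on every array, LuM1 had the highest signal in 14 (48.3%), Colon26 in 9 and NM11 in 6, while over all genes these shares were 29.1%, 38.2% and 32.7%. NM11 had the lowest signal in 14 members (48.3%) and in 26.3% of all genes. Many of these orders rest on differences within the scanner error, and they moved with the scaling. LuM1 was highest in 21 of 29 members under quantile normalization (34.1% of all genes) and in 23 in the authors' processed values (59.0%), and NM11 was lowest in 25 when scaled to *Hprt* (69.0%). These medians also depended on the scaling. The median of the members was above that of all genes by 0.20 for LuM1 over Colon26 and by 0.36 for LuM1 over NM11, and differed from it by -0.18 for NM11 over Colon26, which no single factor per array can change. Quantile normalization gave 0.39, 0.54 and -0.16, and taking every dim probe at face value gave 0.36, 0.15 and 0.00. The members were also read by brighter probes than most genes. Their median brightness percentile was 84.2 among genes detected on all 3 arrays, and 9 of the 29 lay in the brightest 5%. The part of brightness in these differences of medians was not tested.

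**Figure D2:**
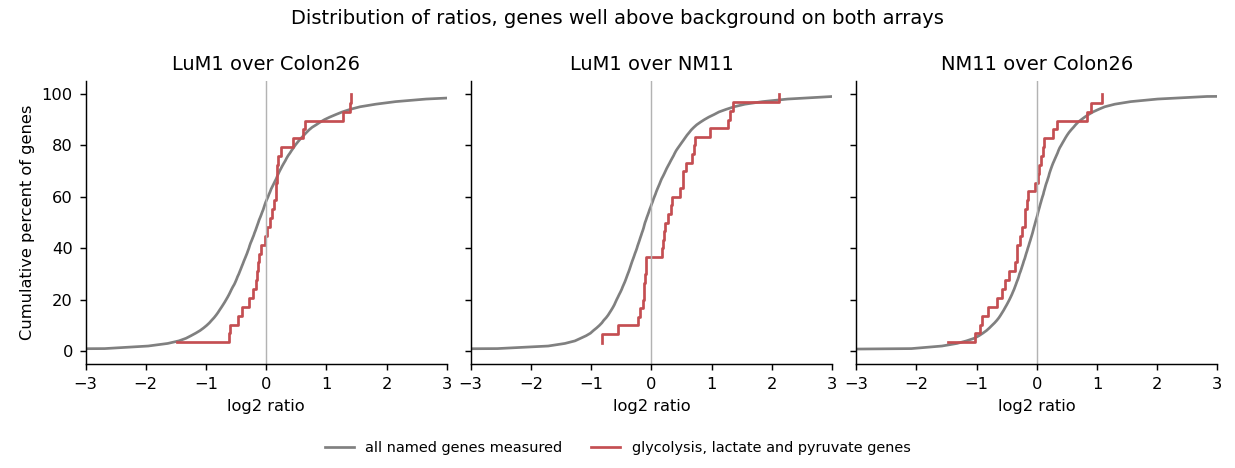
Cumulative share of genes (y axis, percent) by log2 ratio (x axis) in each comparison, for the glycolysis, lactate and pyruvate genes and for all named genes well above background on both arrays. The median of the members lies right of that of all genes for LuM1 over NM11, at 0.25 against -0.11.

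Of the 2 glucose transporter genes among the members, 1 was well above background. *Slc2a1*, the basal glucose transporter GLUT1, had signals of 9939 ± 994 in Colon26, 13589 ± 1359 in LuM1 and 8197 ± 820 in NM11. LuM1 stood highest, 1.37-fold over Colon26 (log2 0.45 ± 0.20, scanner error) and 1.66-fold over NM11 (log2 0.73 ± 0.20). *Slc2a3*, the high-affinity transporter GLUT3, had 2 probes with signals between 4.09 and 6.22, none of them above background.

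All 9 preparatory enzymes were detected on every array. Of these genes, 8 had a log2 ratio above 0 for LuM1 over Colon26, where 41.7% of all genes did. Beyond the scanner error were 3 of the 9, *Hk1*, *Pfkm* and *Aldoc*, near the share of all genes, 30.3%. For LuM1 over NM11, 8 were above 0 (43.0% of all genes) and 7 beyond the scanner error (30.7% of all genes). The medians were 0.16 and 0.48. *Hk1*, a hexokinase, which traps glucose as glucose 6-phosphate, read 6035 ± 604 in Colon26, 9196 ± 920 in LuM1 and 6596 ± 660 in NM11, which put LuM1 1.52-fold over Colon26. *Hk2*, the hexokinase that many tumours express, read 1919 ± 192, 2202 ± 220 and 1535 ± 154 in the same order of lines. *Gpi1*, *Tpi1* and *Aldoa* encode glucose phosphate isomerase, triose phosphate isomerase and the main aldolase. Their log2 ratios ran from 0.13 to 0.16 for LuM1 over Colon26, within the scanner error, and from 0.28 to 0.52 for LuM1 over NM11, beyond it.

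Phosphofructokinase, the committed step of glycolysis, is built from 3 kinds of subunit, and their genes differed in pattern. *Pfkm*, the muscle type subunit, had signals of 683 ± 68.6 in Colon26, 1803 ± 180 in LuM1 and 1215 ± 122 in NM11. Both sublines were above Colon26, LuM1 2.64-fold (log2 1.40 ± 0.20) and NM11 1.78-fold (log2 0.83 ± 0.20). *Pfkp*, the platelet type subunit, read 3418 ± 342, 3589 ± 359 and 1825 ± 183. Here Colon26 and LuM1 lay within the scanner error of each other and NM11 was lower, LuM1 being 1.97-fold over NM11 and past 2-fold in 6 of 11 other ways of processing. The second *Pfkp* probe gave 1068, 1311 and 583, a log2 ratio of 1.17 for LuM1 over NM11. *Pfkl*, the liver type subunit, read 2185 ± 219, 2148 ± 215 and 2283 ± 228, and the lines did not differ beyond the scanner error. The *Pfkm* ratio of NM11 over Colon26 exceeded that of *Pfkp* 3.33-fold (difference of log2 ratios 1.74 ± 0.29), one of 8 pairs of genes set side by side after their values were seen.

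*Aldoc*, the brain type aldolase, was the other preparatory gene with a 2-fold difference. It read 189 ± 19.7 in Colon26, 456 ± 45.8 in LuM1 and 398 ± 40.0 in NM11. Colon26 was lowest, with LuM1 2.42-fold higher (log2 1.27 ± 0.21) and NM11 2.11-fold higher (log2 1.08 ± 0.21), while the sublines lay within the scanner error of each other. *Aldoc* was the 1 member at least 2-fold lower in Colon26 than in both sublines, where 4.53% of all genes were. Its second probe gave 16.8, 8.43 and 31.5 and was well above background in NM11 alone, so the 2 probes do not show the same order of LuM1 and NM11. NM11 over Colon26 stayed past 2-fold in 6 of 11 other ways of processing, with the log2 ratio between 0.59, when scaled to *Hprt*, and 1.11. Those that stayed include looser detection, no filter on dim probes and the probe brightest in LuM1, which leave this ratio as it was.

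Among the 7 payoff enzymes, *Eno2* and *Eno3* alone reached a 2-fold difference in any comparison. *Gapdh*, which makes NADH at the first payoff step, read 161300 ± 16130 in Colon26, 148353 ± 14835 in LuM1 and 127798 ± 12780 in NM11. Its 6 probes gave log2 ratios of -0.12 to -0.01 for LuM1 over Colon26, 0.22 to 0.41 for LuM1 over NM11 and -0.46 to -0.34 for NM11 over Colon26, so NM11 was lowest on all 6. *Pgk1*, whose enzyme regains the first ATP, read 249701 ± 24970, 204520 ± 20452 and 219212 ± 21921. For *Pgk1*, Colon26 over LuM1 was 1.22-fold and exceeded the scanner error, but the log2 ratio of LuM1 over Colon26 turned from -0.29 to 0.16 in the authors' processed values. *Pgam1*, phosphoglycerate mutase, read 47015 ± 4702, 47669 ± 4767 and 40914 ± 4091, and *Pkm*, pyruvate kinase, read 80428 ± 8043, 75466 ± 7547 and 82716 ± 8272. On these probes no pair of lines differed beyond the scanner error in *Pkm*, and LuM1 and NM11 did in *Pgam1*. The second *Pkm* probe had NM11 highest, with log2 ratios of -0.26 for LuM1 over NM11 and 0.21 for NM11 over Colon26, and the second *Pgam1* probe had NM11 lowest, with 0.27 and -0.25, all just beyond the scanner error. *Gapdh*, *Pgk1* and *Pgam1* have processed copies in the mouse genome, and the array does not show whether a probe also binds their transcripts.

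The enolase genes separated. Enolase makes phosphoenolpyruvate, and *Eno1*, *Eno2* and *Eno3* encode the widespread, the neuronal and the muscle form. *Eno2* read 1580 ± 158 in Colon26, 4159 ± 416 in LuM1 and 1693 ± 169 in NM11, from 1 probe. LuM1 was high and the other lines lay within the scanner error of each other, with LuM1 2.63-fold over Colon26 (log2 1.40 ± 0.20) and 2.46-fold over NM11 (log2 1.30 ± 0.20). *Eno3* read 21077 ± 2108, 7566 ± 757 and 13334 ± 1333, also from 1 probe. LuM1 was the lowest line, and Colon26 was 2.79-fold over LuM1 (log2 of LuM1 over Colon26 -1.48 ± 0.20) and 1.58-fold over NM11. *Eno1* read 124966 ± 12497, 110561 ± 11056 and 126748 ± 12675 on its brightest probe, without a difference beyond the scanner error. Its second probe had NM11 above both other lines beyond that error, with log2 ratios of -0.30 for LuM1 over NM11 and 0.23 for NM11 over Colon26. The ratio of LuM1 over Colon26 was therefore 7.33-fold greater for *Eno2* than for *Eno3* (difference of log2 ratios 2.87 ± 0.29). For *Eno2* against *Eno1*, the difference was 1.57 ± 0.29. These enolase pairs too are among the 8 set side by side after their values were seen.

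Neighbouring and copied genes bear on these probes. *Eno3* overlaps *Pfn1*, the gene for profilin, on build GRCm38.p6, and the *Pfn1* probe had log2 ratios of -0.57 for LuM1 over Colon26 and -0.71 for LuM1 over NM11. *Pfkm* overlaps *Senp1*, whose ratios were -0.31 and 0.25. *Eno1* has a near-identical copy, *Eno1b*, with ratios of -0.10 and -0.15. Which exons the probes read was not determined here, so a shared signal was not tested. LuM1 exceeded both other lines at least 2-fold in 2 members, *Eno2* and *Pfkfb3*, a rule that 7.33% of all 14828 genes met. No member was that much lower in LuM1 than in both (4.03% of all genes), nor higher than both in Colon26 (4.46%) or in NM11 (2.58%).

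**Figure D3:**
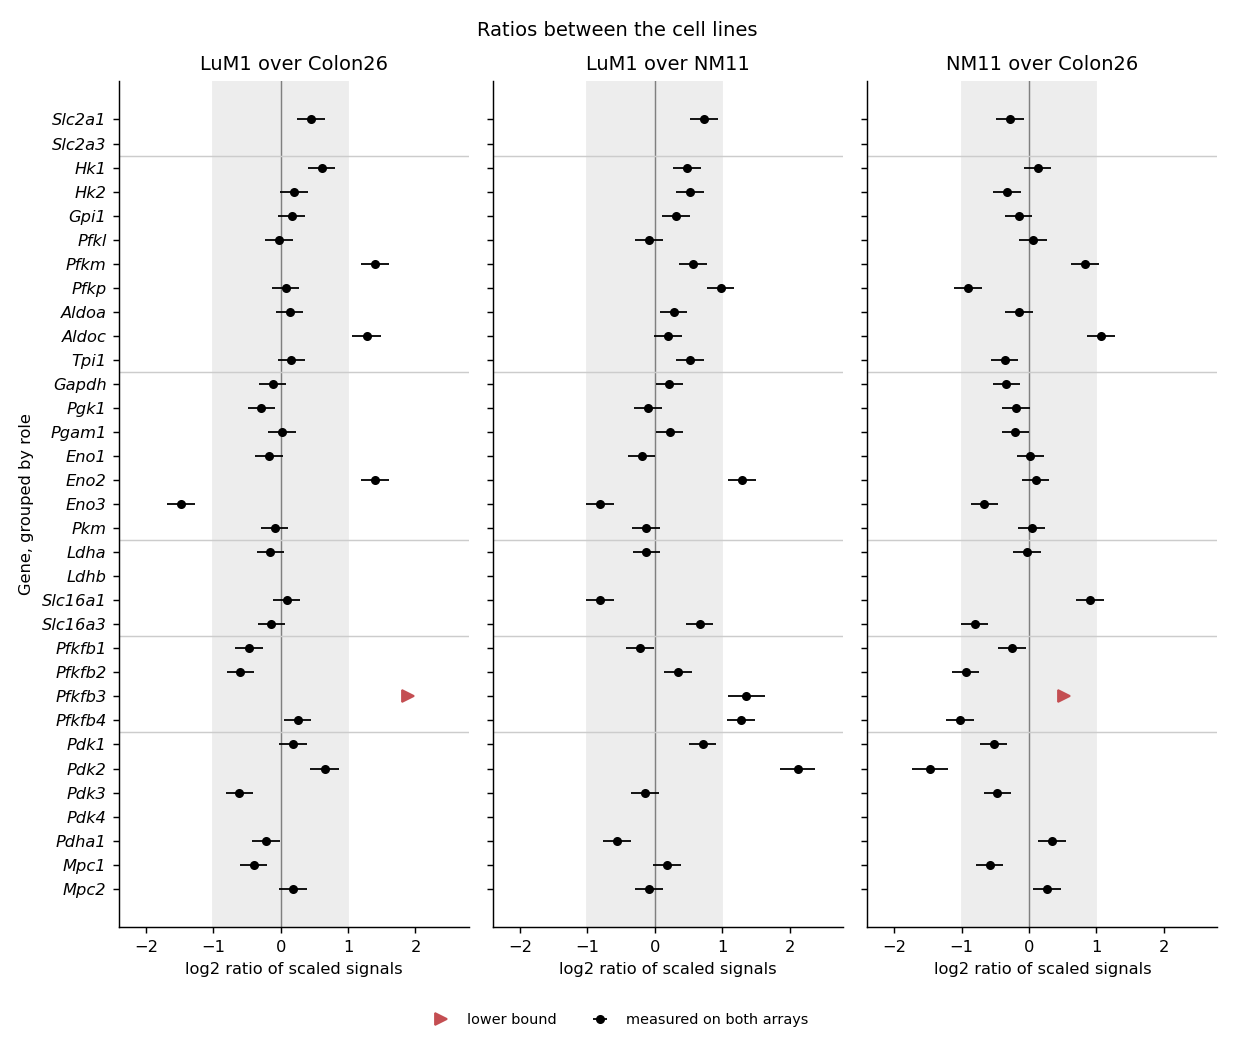
Log2 ratio (x axis) of each gene in the 3 comparisons, ordered by role, with bars for the scanner error, triangles for lower bounds where 1 array was not well above background, and a grey band for ratios within 2-fold. *Eno2* and *Eno3* lie on opposite sides of 0 for LuM1 over Colon26, at 1.40 and -1.48, and most other payoff enzymes lie close to 0.

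Lactate production and export showed 2 different patterns. *Ldha*, the lactate dehydrogenase subunit that favours lactate formation, read 168405 ± 16840 in Colon26, 151463 ± 15146 in LuM1 and 165105 ± 16510 in NM11, and its second probe 9645, 8734 and 9235. The lines lay within the scanner error of each other on both *Ldha* probes. Its printed promoter holds 3 matches to ACGTG. A ratio this near 0 moved with the scaling, and for *Ldha* the log2 ratio of LuM1 over NM11 ran from -0.12 to 0.46, the latter when scaled to *Hprt*. *Ldhb*, the subunit that favours pyruvate formation, had 2 probes with signals from 4.25 to 9.32, none of them above background.

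The lactate transporters differed in NM11. *Slc16a1*, the widespread monocarboxylate transporter MCT1, read 7173 ± 717 in Colon26, 7624 ± 762 in LuM1 and 13423 ± 1342 in NM11. *Slc16a3*, the exporter MCT4, which is induced in hypoxic cells, read 13977 ± 1398, 12673 ± 1267 and 7991 ± 799. NM11 was thus the highest line for *Slc16a1*, 1.87-fold over Colon26, and the lowest for *Slc16a3*, with Colon26 1.75-fold over NM11, and for both genes Colon26 and LuM1 lay within the scanner error of each other. The NM11 over Colon26 ratio of *Slc16a1* exceeded that of *Slc16a3* 3.27-fold (difference of log2 ratios 1.71 ± 0.29), and normexp background correction gave 1.70 and quantile normalization 1.71. Each of the 2 genes was read through 1 probe, and they are another of the 8 pairs set side by side after their values were seen. Neither gene reached 2-fold by itself in any comparison. *Slc16a3* overlaps *Csnk1d*, a casein kinase gene, with a log2 ratio of 0.09 for NM11 over Colon26.

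The PFKFB enzymes make and break fructose 2,6-bisphosphate, the strongest activator of phosphofructokinase. *Pfkfb3*, the form with the highest kinase activity, read 7.06 ± 5.98 in Colon26, where it was not well above background, 97.7 ± 10.8 in LuM1 and 38.1 ± 5.73 in NM11. LuM1 was at least 3.70-fold higher than Colon26 and 2.57-fold over NM11 (log2 1.36 ± 0.27), and NM11 was at least 1.44-fold higher than Colon26. Each bound is set against the lowest signal that was well above background in Colon26, 26.4. The second *Pfkfb3* probe was not well above background in any line, with signals from 4.30 to 11.2. Under normexp background correction the log2 ratio of LuM1 over NM11 was 0.52, under 2-fold. For LuM1 over Colon26 that correction gave a lower bound of 0.98 on the log2 scale. This bound falls short of the 2-fold call but does not place the ratio itself under 2-fold.

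*Pfkfb4*, a form known to be induced by hypoxia, read 468 ± 47.1 in Colon26, 556 ± 55.8 in LuM1 and 229 ± 23.3 in NM11. NM11 was the low line, LuM1 being 2.42-fold over NM11 (log2 1.28 ± 0.21) and Colon26 2.04-fold over NM11. The latter was past 2-fold in 8 of 11 other ways of processing, some of which leave this ratio as it was. It fell below 2-fold under quantile normalization, under normexp (log2 of NM11 over Colon26 -0.90) and in the authors' processed values. Its second probe was not well above background in any line. The kinase and phosphatase gene *Pfkfb2* read 624 ± 62.6, 412 ± 41.4 and 325 ± 32.7 on its brightest probe, with Colon26 highest. A dimmer *Pfkfb2* probe gave 34.8, 59.5 and 48.5, in the reverse order of Colon26 and the sublines, and a further one was well above background in Colon26 alone, at 48.5, so no order of the lines is given for this gene. *Pfkfb1*, the liver form, read 254 ± 26.0, 183 ± 18.8 and 213 ± 21.7, with Colon26 1.39-fold over LuM1.

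At the entry of pyruvate into mitochondria, *Pdk2* was the 1 gene of 7 with a 2-fold difference. *Pdk2*, one of the kinases that switch pyruvate dehydrogenase off, read 103 ± 11.6 in Colon26, 161 ± 16.6 in LuM1 and 36.9 ± 5.43 in NM11 from its 1 probe. NM11 was low, with LuM1 4.36-fold over NM11 (log2 2.13 ± 0.26) and Colon26 2.78-fold over NM11, and LuM1 was 1.57-fold over Colon26. *Pdk2* and *Pfkfb4* were the 2 members at least 2-fold lower in NM11 than in both other lines, a rule that 2.08% of all genes met. The NM11 signal of *Pdk2* lay near the lowest signal well above background there, 19.6. Under normexp background correction, which adds an offset to dim spots, the log2 ratios were 1.18 for LuM1 over NM11 and -0.77 for NM11 over Colon26.

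*Pdk1*, the kinase best known as a HIF target, read 3813 ± 381 in Colon26, 4327 ± 433 in LuM1 and 2649 ± 265 in NM11. LuM1 was 1.63-fold over NM11 (log2 0.71 ± 0.20) and within the scanner error of Colon26. Of the 4 *Pdk1* probes, 3 gave log2 ratios of 0.71 to 0.88 for LuM1 over NM11 and 1 gave 0.15. *Pdk3*, another kinase, read 1304 ± 131, 852 ± 85.3 and 943 ± 94.4, so that Colon26 was highest, 1.53-fold over LuM1. *Pdk4*, the kinase that rises in fasting, was not above background on any array, with signals from 4.23 to 5.94.

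The pyruvate carrier and the dehydrogenase subunit stayed within 2-fold in every comparison. *Pdha1*, the catalytic subunit of pyruvate dehydrogenase, read 3848 ± 385 in Colon26, 3309 ± 331 in LuM1 and 4876 ± 488 in NM11, with NM11 1.47-fold over LuM1, a direction that was lost when scaled to *Hprt* (log2 of LuM1 over NM11 0.03). *Mpc1* and *Mpc2* encode the subunits of the mitochondrial pyruvate carrier. *Mpc1* read 8577 ± 858, 6490 ± 649 and 5723 ± 572, and *Mpc2* read 2634 ± 263, 2992 ± 299 and 3178 ± 318. Colon26 was highest for *Mpc1*, with a log2 ratio of -0.58 ± 0.20 for NM11 over Colon26, and lowest for *Mpc2*, where NM11 was 1.21-fold higher. The latter order turned when scaled to *Hprt* (log2 of NM11 over Colon26 -0.22) or to spike-in controls.

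Where several probes of 1 gene were measured, they mostly gave like ratios. In the 11 members with several measured probes, the range of the log2 ratios had a median of 0.11 for LuM1 over Colon26, 0.10 for LuM1 over NM11 and 0.07 for NM11 over Colon26. *Pfkfb2* had the widest range for LuM1 over Colon26, 1.37, and for NM11 over Colon26, 1.42, and *Pdk1* for LuM1 over NM11, 0.73. Of the 7 genes with a 2-fold difference, *Pfkm*, *Eno2*, *Eno3* and *Pdk2* had 1 probe each, so no second probe bears on them. The second probes of *Hk1*, *Aldoc*, *Pfkfb1*, *Pfkfb3* and *Pfkfb4* gave no measured ratio. No gene with a 2-fold difference is therefore among the 11.

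**Figure D4:**
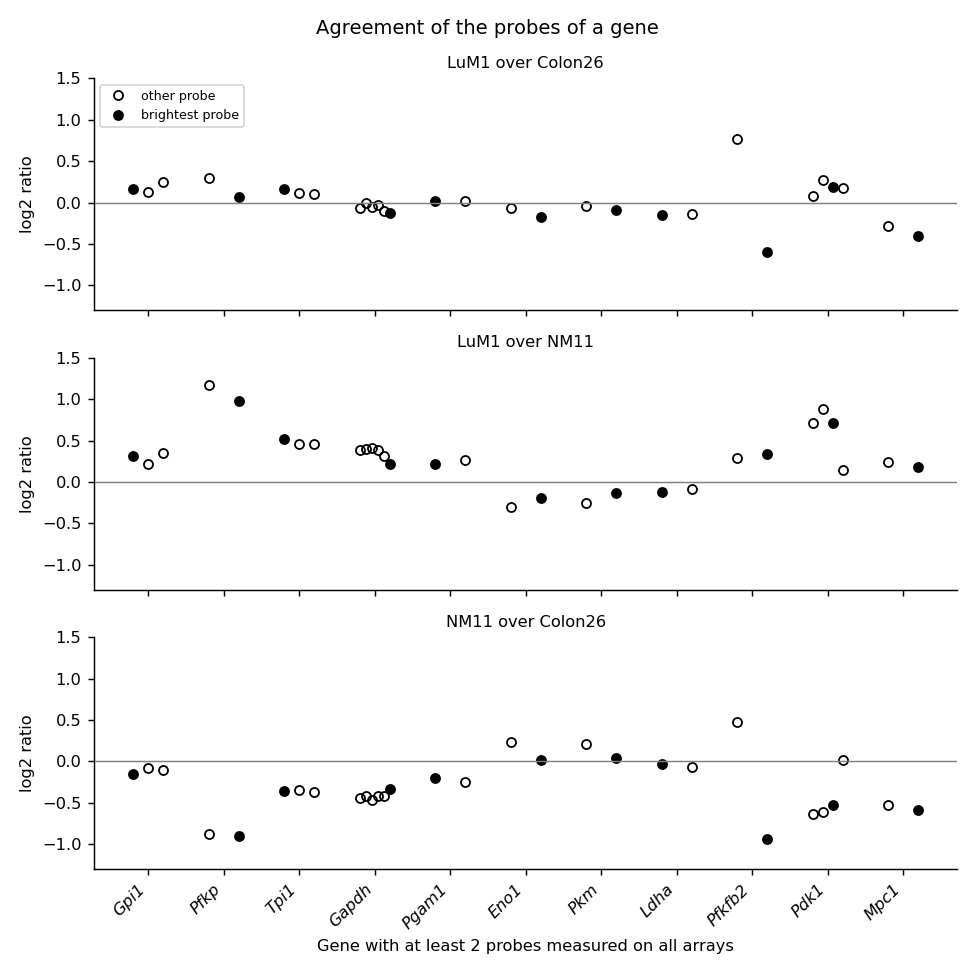
Log2 ratios (y axis) of every probe of the 11 genes with several probes measured on all arrays (x axis), in the 3 comparisons, with the brightest probe filled. Probes of 1 gene lie close together, apart from *Pfkfb2* and *Pdk1*, and the 6 *Gapdh* probes span 0.22 to 0.41 for LuM1 over NM11.

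A further 58 genes of glucose, lactate and pyruvate metabolism were read as the rest of the pathway. For LuM1 over Colon26, 3 of 44 with a ratio or bound were at least 2-fold higher and 3 lower, beside 12.9% and 11.7% of all genes. For LuM1 over NM11, 4 of 43 were higher and 1 lower, beside 11.1% and 8.5% of all genes. For NM11 over Colon26, 0 of 41 were higher and 2 lower, beside 8.17% and 7.74%. All these counts were below the shares of all genes. The medians of those measured on both arrays were -0.13, -0.20 and 0.11, beside -0.13, -0.11 and -0.02 for all genes.

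Among these, *Emb*, for embigin, a partner protein that brings monocarboxylate transporters to the membrane, read 422 ± 42.7 in Colon26, 1679 ± 168 in LuM1 and 553 ± 55.5 in NM11. LuM1 was 3.97-fold over Colon26 and 3.03-fold over NM11. The glucose transporter gene *Slc2a10* read 138 ± 14.4 in LuM1 and was not well above background in the other lines, at least 5.22-fold higher than in Colon26 and at least 7.04-fold higher than in NM11. *Hk3*, a further hexokinase, was 2.05-fold higher in LuM1 than in Colon26. *Pgm1*, listed for the glycogen branch, was 2.47-fold higher in LuM1 than in NM11, and *Pdp1*, a phosphatase that switches pyruvate dehydrogenase back on, 2.09-fold. Lower in LuM1 were *Gpd2*, of the glycerol phosphate shuttle, with Colon26 2.34-fold over LuM1, and *Adpgk*, an ADP-dependent glucokinase, with NM11 2.18-fold over LuM1.

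*G6pc*, the liver glucose 6-phosphatase, was well above background in Colon26 alone, at 783 ± 78.5, and Colon26 was at least 38.9-fold higher than LuM1. Around this spot, within 5 rows and columns, 11.3% of neighbouring spots were well above background in Colon26 alone, against 1.89% over the array. The part of this place on the Colon26 array in the *G6pc* value was not tested. Among the members, the neighbours of the brightest *Pfkfb4* spot gave 7.02%, those of the dimmest *Pdk1* spot 6.80% and those of the brightest *Pfkfb2* spot 6.19%. The brightest *Hk1* spot gave 5.22% and that of *Slc16a3* 4.39%, and all other member spots gave less.

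**Figure D5:**
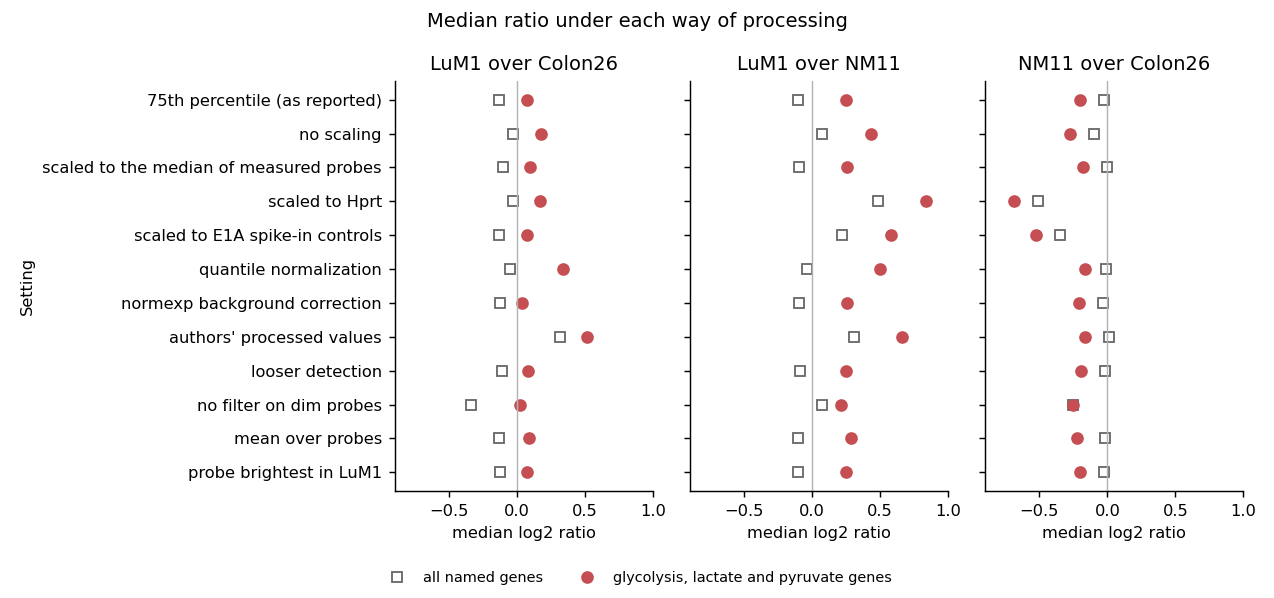
Median log2 ratio (x axis) of the glycolysis, lactate and pyruvate genes and of all named genes under each way of processing (y axis). For LuM1 over NM11 the median of the members is above 0 and right of that of all genes under every setting shown, from 0.22 without a filter on dim probes to 0.84 when scaled to *Hprt*.

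*Hif1a*, which encodes the oxygen-regulated subunit of HIF, read 4006 ± 401 in Colon26, 10673 ± 1067 in LuM1 and 5239 ± 524 in NM11. The reference gene *Hprt* read 11101 ± 1110, 10351 ± 1035 and 15573 ± 1557 and was itself highest in NM11, which bears on any value scaled to it.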

How the data were processed

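Total RNA of Colon26, LuM1 and NM11 cells was hybridised to 1 single-colour Agilent array per line. The authors deposited spot intensities from Agilent Feature Extraction 11.5.1.1 (per the submitters' processing notes), already background-subtracted, and flags of 0 or 1 for spots above background, outlying or saturated. The processed table of the series, deposited by the authors, holds these intensities multiplied by 0.654 for Colon26, 0.829 for LuM1 and 0.706 for NM11, and served as an alternative.

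Control and outlier spots were left out (137, 74 and 99 outliers). The 75th percentile served to scale every array before log2 ratios were taken. A probe not well above background on 1 array gave a bound, and on both arrays none. Of 56605 probes, 32994 (58.3%) were named through RefSeq accessions (assembly GRCm38.p6). The design was annotated on another build, so no gene coordinates are given. A gene was read through its brightest probe, and a call was a ratio or bound of 2-fold or more. Named were all 33 members, and of the 58 other pathway genes those called in any comparison, except 1 that is not reported here. Members and lists were chosen with earlier results of these data known. The number of arrays limits the precision, and no test was possible. Alternatives were other scalings, normexp background correction (offset 50, on median spot signals), quantile normalization, detection filters, probe rules and a 1.5-fold threshold. The calling steps were tested on simulated data, which held changes larger than most called here and put none into dim genes. Calls on smaller changes or dim probes were therefore not covered by it. Tools were Python 3.11.15, numpy 2.4.6, pandas 2.3.3, matplotlib 3.10.9, R 4.3.3 and limma 3.58.1.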

Additional observations from a re-analysis of the deposited data

How the results depend on the processing

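In all, 105 counts and medians were recomputed under 12 alternatives. Of these, 77 stayed within 1.5 times the count, or within the scanner error of the median, and 28 moved. A count has no sign, so it could not reverse. The median of the members kept its sign in each comparison under every alternative that recomputed it. No gene at least 2-fold different changed the sign of its ratio (5, 4 and 3 genes in LuM1 over Colon26, LuM1 over NM11 and NM11 over Colon26), while 9, 10 and 8 of the 30 genes with a ratio or bound changed sign under at least 1 alternative. Shares of all genes stand in parentheses. At a threshold of 1.5-fold, 3 members were lower for LuM1 over Colon26 (24.6%), 8 were higher (19.1%) and 2 lower (20.5%) for LuM1 over NM11, and 3 were higher (15.5%) and 6 lower (16.7%) for NM11 over Colon26. Scaled to *Hprt*, 12 members were higher for LuM1 over NM11 (24.8%) with a median of 0.84, and for NM11 over Colon26 0 were higher (4.86%) and 8 lower (19.3%) with a median of -0.69. Over all genes the medians then were 0.48 and -0.51. Scaled to the 7 E1A spike-in control probes, 7 were higher for LuM1 over NM11 (16.6%) with a median of 0.58, and 0 higher (5.71%) and 5 lower (14.0%) for NM11 over Colon26 with a median of -0.53. Over all genes these medians were 0.22 and -0.35. Quantile normalization gave medians of 0.34 for LuM1 over Colon26 and 0.50 for LuM1 over NM11, and 1 member lower for NM11 over Colon26 (7.14%). The authors' processed values gave a median of 0.52 for LuM1 over Colon26, beside 0.32 for all genes, 8 members higher for LuM1 over NM11 (19.1%) with a median of 0.66, beside 0.31 for all genes, and 1 lower for NM11 over Colon26 (7.30%). For NM11 over Colon26, 0 members were higher without scaling (7.41%), with the mean over probes (8.01%) and under normexp (5.72%), which also left 0 lower (4.45%), and 2 were higher with looser detection (10.1%) or no filter on dim probes (7.90%). The causes were not tested. No paired analysis was possible because each line has 1 array, and leaving out a replicate could not be run for the same reason. Signal over background limits *Slc2a3*, *Ldhb* and *Pdk4* on every array and *Pfkfb3* in Colon26, which were not well above background there, and *Pdk2* and *Pfkfb3* in NM11 lay near that limit.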
